A study of Mus musculus with 3 samples.

Results

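Described here are 9 genes of iron-sulfur cluster assembly in ST2 cells, an established mouse bone marrow stromal line. They are the BolA genes Bola1, Bola2 and Bola3 and the mitochondrial assembly genes Nfs1, Iscu, Glrx5, Isca1, Isca2 and Nfu1, and they make up 9 of the 51826 rows of the expression table. The members were chosen from measured values as well as from function, because Bola1 was picked for being higher in both treated libraries, so its ratios to the control are a description with no test. The other 8 genes were taken for their place in the same pathway. The Control library came from cells that received empty vector together with control siRNA. The NELL2 overexpression library came from cells that received a NELL2 expression construct together with control siRNA. For the Fn1 knockdown library, cells received empty vector together with siRNA against fibronectin 1 (Fn1). The siRNA concentration was 30 nM in all 3 groups, and lipofectamine carried plasmid and siRNA in every group, so the control cells were transfected as well. Each group had 1 library from this cell line, so nothing below has a replicate check and no p-value is given.

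Messenger RNA was measured as FPKM, the number of fragments divided by transcript length and by the total of mapped fragments. The estimated depth lay between 23000000 and 24200000 fragments per library. Nell2 was at 0.640, 326 and 1.06 FPKM in the Control, NELL2 overexpression and knockdown libraries, and Fn1 was at 2802, 2489 and 137 FPKM, both in the direction of the labels. All 10 stromal markers reached 1 FPKM in each library, with sums from 2680 to 3099 FPKM. Of 5 haematopoietic markers (Itgam, on more than 1 row, was left out) only Csf1r and Cd68 reached 1 FPKM, and the 5 summed to 5.70, 5.92 and 3.02 FPKM. The endothelial markers summed to between 1.75 and 1.97 FPKM, and only Kdr reached 1 FPKM, at 1.33 FPKM upon Fn1 knockdown. Those of epithelium, adipocytes and mature osteoblasts summed to 0.341 FPKM or less. In RNA from whole cultures, fewer cells that express a gene and less RNA of it per cell cannot be told apart.

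Iron-sulfur clusters are cofactors of respiratory complexes, aconitases, lipoate synthase and enzymes of DNA metabolism. They are first built in mitochondria from sulfur that Nfs1 takes from cysteine, on the scaffold protein Iscu, and are passed on by the glutaredoxin Glrx5 to late factors that place them in their target proteins. BolA proteins partner with monothiol glutaredoxins, Bola1 and Bola3 with Glrx5 in mitochondria and Bola2 with Glrx3 in the cytosol, and inherited loss of human BOLA3 or NFU1 impairs lipoylated enzymes of energy metabolism.

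The question was how the levels of this machinery compare between the 3 libraries. All 9 genes reached 1 FPKM in at least 1 library, and 8 of them lay between 9.76 and 47.0 FPKM in every library. Bola1 was the exception. It was at 1.59 FPKM in the Control library, the lowest level among the 9, and at 9.82 FPKM under NELL2 overexpression and 11.7 FPKM upon Fn1 knockdown, which placed it beside Bola3 and Bola2. The other 8 genes differed from the Control by a log2 ratio between -0.16 and 0.02 under NELL2 overexpression and between -0.21 and 0.43 upon Fn1 knockdown. All log2 ratios are of FPKM + 1, which makes the difference of a gene with low FPKM look smaller than it is.

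**Figure D1:**
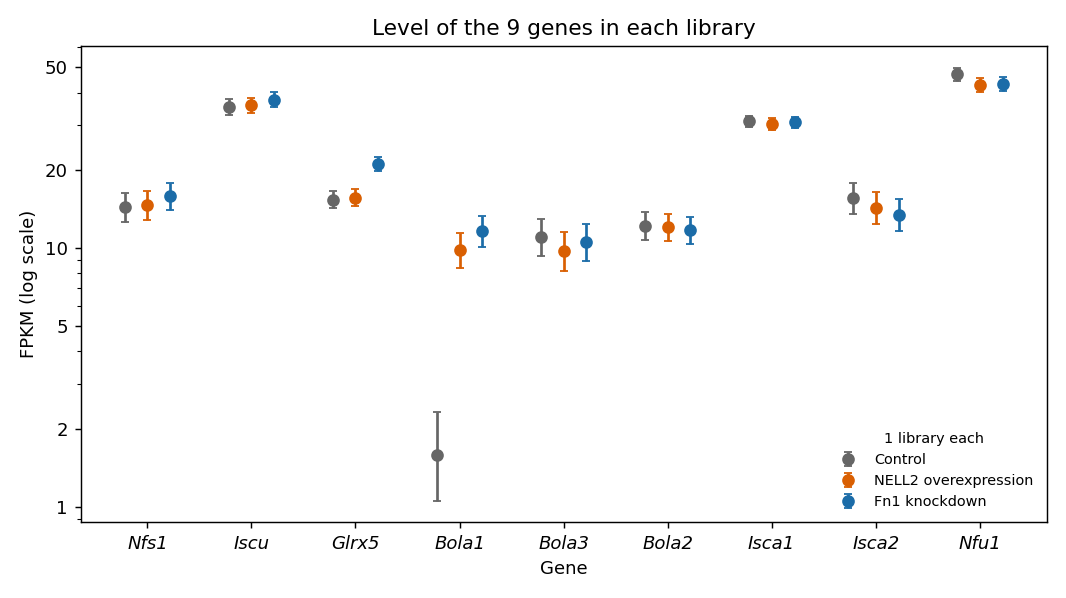
FPKM of each of the 9 genes (vertical axis, log scale) in the Control (grey), NELL2 overexpression (orange) and Fn1 knockdown (blue) libraries, with points for the single library of each group and bars for the 95% counting interval. Bola1 moves from 1.59 FPKM to 9.82 and 11.7 FPKM, whereas the other genes keep close to their Control level apart from Glrx5, at 21.1 FPKM upon Fn1 knockdown.

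Nfs1, the cysteine desulfurase that supplies sulfur (ENSMUSG00000027618.17, minus strand of GRCm38 chromosome 2 from 156123639 to 156144186), was at 14.4 FPKM in the Control, 14.7 FPKM under NELL2 overexpression and 15.9 FPKM upon Fn1 knockdown. The 3 libraries lay within counting error of each other. The ratio to the Control was 1.02 with a 95% counting interval from 0.850 to 1.23 for NELL2 overexpression and 1.11 with an interval from 0.924 to 1.32 for Fn1 knockdown. These intervals rest on estimated fragments and cover counting error only, not the spread between cultures. Nfs1 shares 256 exon bases on the same strand with the annotated gene Gm28036, which was at 0.799, 0.671 and 19.1 FPKM in the 3 libraries. Gm28036 also overlaps Cpne1, chosen after its values were seen, at 33.8, 33.4 and 7.20 FPKM. Scaled to depth, the estimated fragments of Nfs1, Gm28036 and Cpne1 together were at 99.5% of their Control sum under NELL2 overexpression and at 63.5% upon Fn1 knockdown. How fragments were divided among these genes was not tested, so the level of Nfs1 upon Fn1 knockdown is less certain than its interval. On the opposite strand, Nfs1 shares 148 exon bases with Romo1, at 50.1, 55.7 and 53.0 FPKM.

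Iscu, the scaffold on which the cluster is built (ENSMUSG00000025825.12, plus strand of chromosome 5 from 113772748 to 113778288), was at 35.1, 35.7 and 37.6 FPKM in the Control, NELL2 overexpression and knockdown libraries. The libraries lay within counting error, with ratios to the Control of 1.02 (95% counting interval 0.920 to 1.12) and 1.07 (0.970 to 1.18). The proportion of Nfs1 to Iscu, a ratio of 2 FPKM values, was 0.411 in the Control, 0.411 under NELL2 overexpression and 0.424 upon Fn1 knockdown.

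Glrx5, the mitochondrial glutaredoxin that receives the cluster from Iscu (ENSMUSG00000021102.4, plus strand of chromosome 12 from 105032688 to 105042906), was at 15.4 FPKM in the Control, 15.7 FPKM under NELL2 overexpression and 21.1 FPKM upon Fn1 knockdown. The Fn1 knockdown library stood above the others. Its ratio to the Control was 1.37 (95% counting interval 1.24 to 1.52), a log2 ratio of 0.43, and its ratio to the NELL2 overexpression library was 1.35 (1.22 to 1.49). The difference from the Control was larger than counting error but below 2-fold. Upon Fn1 knockdown the counting interval lay above 1 for 23.6% of 12278 genes, whatever the size of their ratio. By log2 ratio Glrx5 ranked 751st from the top among 12705 expressed genes, above 94.1% of them. These genes reached 1 FPKM in some library and had a name found on a single row. With NELL2 overexpression the ratio of Glrx5 to the Control was 1.02 (0.913 to 1.13). Bola1 ranked 9th under NELL2 overexpression and 7th upon Fn1 knockdown among the same genes.

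Bola1 (ENSMUSG00000015943.11, minus strand of chromosome 3 from 96196588 to 96219709) encodes a mitochondrial BolA protein that binds Glrx5. Its coding sequence of 411 bases, 137 codons, runs from 96196866 to 96197276 within a single exon that all 3 annotated transcripts contain. The level of 1.59 FPKM in the Control stood for about 27 estimated fragments, 9.82 FPKM under NELL2 overexpression for about 170 and 11.7 FPKM upon Fn1 knockdown for about 206. The Control library was low and both treated libraries were high, and the counting interval of the Control level overlapped neither of theirs (1.06 to 2.34 FPKM in the Control, 8.42 to 11.4 FPKM under NELL2 overexpression and 10.1 to 13.4 FPKM upon Fn1 knockdown). The FPKM ratio to the Control was 6.19 (95% counting interval 4.06 to 9.54) under NELL2 overexpression and 7.37 (4.84 to 11.3) upon Fn1 knockdown, or log2 ratios of 2.06 and 2.30. These values chose the gene and share the Control library, so they do not support each other. The ratio of the Fn1 knockdown to the NELL2 overexpression library does not use the Control. It was 1.19 with an interval from 0.964 to 1.46, which includes 1. Because Bola1 was picked for a rise in both of these libraries, similar levels in them are partly built in. Among the 12733 rows that reached 1 FPKM in some library, Bola1 was above 10.6% in the Control, 51.0% under NELL2 overexpression and 56.5% upon Fn1 knockdown.

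The 3 annotated Bola1 transcripts are 692, 729 and 995 bases long, a 1.44-fold range, and they start 23121, 998 and 1901 bases above the lower end of the gene. FPKM divides by length, and how fragments were shared among the transcripts is not known. Taken with each of these lengths, the Control level stood for 25 to 36 fragments, and the lower bound of the ratio to the Control stayed between 4.06 and 4.39 under NELL2 overexpression and between 4.84 and 5.25 upon Fn1 knockdown. No exon of Bola1 overlaps an exon of another annotated gene on either strand. Gm15444, on the same strand with a span that runs from the longest intron of Bola1 past its far end, was listed at 0 in all 3 libraries.

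Of the genes around Bola1 at 1 FPKM or more, none but Bola1 was 2-fold higher than the Control in both treated libraries. On the side of lower coordinates, Otud7b was at 12.6, 13.4 and 13.8 FPKM in the Control, NELL2 overexpression and knockdown libraries, Mtmr11 at 10.7, 10.4 and 10.2 FPKM, and the splicing factor gene Sf3b4 at 50.9, 48.9 and 52.8 FPKM. Sv2a, the nearest gene on this side, was at 0.130 FPKM or less. On the side of higher coordinates, the histone gene Hist2h3c2 was at 3.36, 3.14 and 4.12 FPKM and the antisense gene Gm20632 at 4.47, 5.11 and 6.43 FPKM. Hist2h2aa1, 25788 bases from Bola1, was listed at 0 in the Control, at 13.1 FPKM under NELL2 overexpression and at 0 upon Fn1 knockdown. Outside the 3 nearest on that side, Gm20634 had the same pattern (0, 3.34 and 0 FPKM). Hist2h3c1 was low under NELL2 overexpression alone (3.03, 0.0714 and 4.02 FPKM). Both were chosen after their values were seen. On the same strand, the span of Gm20634 overlaps those of Hist2h2aa1 and Hist2h3c1. How fragments were divided among these genes was not tested. The other 5 of the 6 nearest neighbours at 1 FPKM or more had log2 ratios to the Control between -0.08 and 0.44, against 2.06 and 2.30 for Bola1.

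Sequence before a start site is shown for the 3 mitochondrial partners Bola1, Glrx5 and Bola3. They were taken because the first was higher in both treated libraries, the second only upon Fn1 knockdown and the third in neither. RefSeq windows on GRCm38.p6, from 250 bases before to 50 after a start site, were matched for 8 of the 9 members, all but Iscu. Capitals mark CCAAT boxes (CCAAT, or ATTGG on the other strand) and GC boxes (GGGCGG, or CCGCCC on the other strand). Glrx5 is given for chr12:105032368-105032617, plus strand, and Bola3 for chr6:83348897-83349146, plus strand, each up to the base before the start site. Bola1 is given for chr3:96197738-96197836, minus strand, which ends 151 bases before the start site of its 729-base transcript. An exon of the 2 transcripts with starts farther up begins there, and the printed bases lie in their introns. Those 2 farther starts had no window.
Bola1: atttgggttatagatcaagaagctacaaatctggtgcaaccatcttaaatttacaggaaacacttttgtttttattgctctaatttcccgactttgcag
Glrx5: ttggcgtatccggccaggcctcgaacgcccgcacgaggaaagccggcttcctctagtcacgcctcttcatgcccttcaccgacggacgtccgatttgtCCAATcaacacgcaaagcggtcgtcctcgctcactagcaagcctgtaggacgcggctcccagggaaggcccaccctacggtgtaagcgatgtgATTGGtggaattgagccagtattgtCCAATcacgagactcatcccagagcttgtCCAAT
Bola3: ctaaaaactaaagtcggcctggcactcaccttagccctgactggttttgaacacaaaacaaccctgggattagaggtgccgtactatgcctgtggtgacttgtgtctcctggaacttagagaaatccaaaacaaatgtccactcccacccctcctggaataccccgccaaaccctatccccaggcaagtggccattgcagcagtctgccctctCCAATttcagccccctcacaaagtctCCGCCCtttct

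The Glrx5 window held 4 CCAAT boxes, which start 152, 59, 34 and 5 bases before the start site. Of 32851 RefSeq windows, 37.4% held at least 1 CCAAT box and 1.06% held 4 or more. The Bola1 window of 300 bases held neither a CCAAT box nor a GC box, the latter found in 35.7% of all windows. The Nfs1 window also held neither, and those of Bola2, Isca1, Isca2 and Nfu1 each held at least 1 CCAAT box. The Bola1 window held 1 match to TGACNNNGC, the core of the antioxidant response element, which 12.4% of windows hold on either strand. Nfs1 and Isca1 held 2 such matches each and Glrx5 and Bola3 none. None of the 8 members held an E-box (CACGTG, 7.15% of windows) or a TATA box (TATAAA, 13.6%), and Nfs1, Isca1 and Isca2 held the ETS motif CCGGAAG (8.86%). In base composition, Bola1 was at 49.3% GC with 17 CpG, Glrx5 at 60% with 24 CpG and the printed Bola3 window at 51.7% with 5 CpG, against medians of 52.7% and 7 CpG over all windows. RefSeq gives Bola3 2 further start sites, at 83349216 and 83349476, and the window of the latter was at 72.3% GC with 30 CpG, 2 GC boxes and no CCAAT box. A match to these letters is a description of the window and shows no binding.

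Bola3, the mitochondrial BolA protein that acts with Glrx5 and Nfu1 in cluster delivery (ENSMUSG00000045160.14, plus strand of chromosome 6 from 83349147 to 83360136), was at 11.1 FPKM in the Control, 9.76 FPKM under NELL2 overexpression and 10.6 FPKM upon Fn1 knockdown. The 3 values lay within counting error of each other, with ratios to the Control of 0.883 (95% counting interval 0.696 to 1.13) and 0.958 (0.757 to 1.21). An increase of Bola3 as large as that of Bola1 was therefore outside the counting intervals in both treated libraries. The proportion of Bola1 to Bola3 was 0.144 in the Control, 1.01 under NELL2 overexpression and 1.10 upon Fn1 knockdown, so that the 2 mitochondrial BolA genes were at near-equal FPKM only in the treated libraries.

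Bola2, the cytosolic BolA protein (ENSMUSG00000047721.8, plus strand of chromosome 7 from 126695401 to 126699798), was at 12.2, 12.1 and 11.8 FPKM. Its ratios to the Control were 0.988 (95% counting interval 0.832 to 1.17) under NELL2 overexpression and 0.965 (0.812 to 1.15) upon Fn1 knockdown, within counting error. Bola2 shares exon bases on the opposite strand with Slx1b (360 bases, at 1.53, 1.62 and 1.24 FPKM) and Coro1a (26 bases, at 0.957, 0.649 and 0.303 FPKM), both at low levels. Its partner Glrx3 was at 99.3, 104.6 and 117.6 FPKM, so the proportion of Bola2 to Glrx3 was 0.123, 0.115 and 0.1002. Of the summed FPKM of the 3 BolA genes, Bola1 made up 6.38% in the Control, 31.0% under NELL2 overexpression and 34.3% upon Fn1 knockdown.

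Relative to its partner glutaredoxin, Bola1 was at 0.103 of the Glrx5 level in the Control, 0.626 under NELL2 overexpression and 0.553 upon Fn1 knockdown. Bola3 was at 0.718, 0.622 and 0.501 of the Glrx5 level in the same order. The proportion of Bola1 was thus lowest in the Control, whereas that of Bola3 was lowest upon Fn1 knockdown, where Glrx5 was highest. The other 2 glutaredoxin genes, chosen after their values were seen, had patterns of their own. Glrx, the cytosolic dithiol glutaredoxin, was at 23.9, 17.5 and 17.5 FPKM, a ratio to the Control of 0.733 in both treated libraries. Glrx2, the mitochondrial dithiol glutaredoxin, was at 7.78, 7.24 and 9.83 FPKM, and its ratio to the Control upon Fn1 knockdown was 1.26 (95% counting interval 1.03 to 1.56).

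Isca1 and Isca2 are A-type proteins that act together in forming the larger clusters. Isca1 (ENSMUSG00000044792.7, minus strand of chromosome 13 from 59755409 to 59769810) was at 30.9, 30.3 and 30.7 FPKM in the Control, NELL2 overexpression and knockdown libraries. With 1381 to 1442 estimated fragments it was the most precisely measured member, and its ratios to the Control were 0.979 (95% counting interval 0.909 to 1.06) and 0.992 (0.921 to 1.07). Isca2 (ENSMUSG00000021241.7, plus strand of chromosome 12 from 84773251 to 84775088) was at 15.6, 14.3 and 13.4 FPKM. It was lower in both treated libraries by less than counting error, with ratios of 0.917 (0.754 to 1.12) and 0.856 (0.705 to 1.05). The proportion of Isca1 to Isca2 was 1.98 in the Control, 2.11 under NELL2 overexpression and 2.29 upon Fn1 knockdown. Isca1 shares 115 exon bases on the same strand with the annotated gene Gm49354, which matched no row by name, and 314 on the opposite strand with Etohd2, at 0.951, 1.16 and 1.38 FPKM.

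Nfu1, the late factor that hands clusters to lipoate synthase and other proteins (ENSMUSG00000029993.16, plus strand of chromosome 6 from 87009236 to 87028461), was the most abundant of the 9 per length, at 47.0 FPKM in the Control, 42.9 FPKM under NELL2 overexpression and 43.2 FPKM upon Fn1 knockdown. Both treated libraries were slightly below the Control. The ratio was 0.913 under NELL2 overexpression, where the 95% counting interval from 0.835 to 0.998 just excluded 1, as it did on the lower side for 12.5% of 12277 genes, and 0.920 (0.842 to 1.01) upon Fn1 knockdown.

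**Figure D2:**
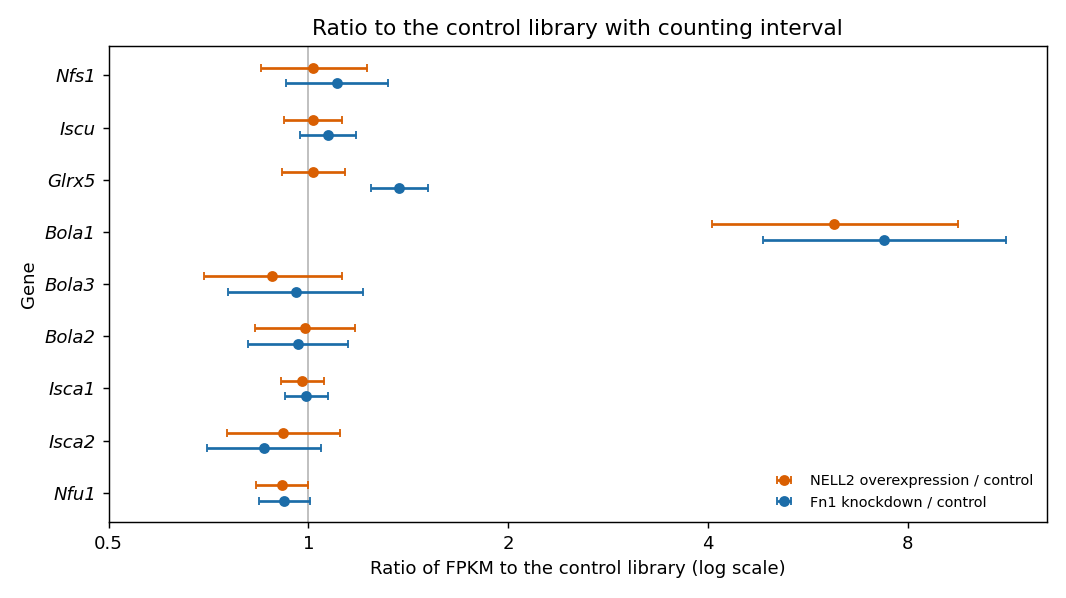
Ratio of FPKM in the NELL2 overexpression (orange) and Fn1 knockdown (blue) libraries to the Control library for each of the 9 genes (horizontal axis, log scale), with bars for the 95% counting interval. Bola1 lies at 6.19 and 7.37, Glrx5 at 1.37 upon Fn1 knockdown, and the interval of Nfu1 under NELL2 overexpression ends at 0.998, whereas the intervals of all other points include 1.

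The order of the levels was compared next. Nfu1, Iscu and Isca1 took the first 3 places in that order in every library, and their counting intervals did not overlap within any library. In the Control, Isca2, Glrx5, Nfs1, Bola2 and Bola3 followed, with overlapping intervals for each pair of neighbours, and Bola1 was last and apart from the rest. With NELL2 overexpression the order after Isca1 was Glrx5, Nfs1, Isca2, Bola2, Bola1 and Bola3, with overlapping intervals for each pair of neighbours from Glrx5 on. After Fn1 knockdown Glrx5 stood apart from Nfs1, and Nfs1, Isca2, Bola2, Bola1 and Bola3 followed with overlapping intervals. The 9 genes summed to 183.3, 185.2 and 196 FPKM, and without Bola1 to 181.7, 175.4 and 184.3 FPKM.

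Against all genes, the count of members was small. A gene was called when its log2 ratio was 1 or more in size, that is 2-fold on the FPKM + 1 scale, and it reached 1 FPKM in either library. With NELL2 overexpression 1 of the 9 members was called and was higher, namely Bola1, where 0.652% of 12572 genes were called and 0.374% were called higher. After Fn1 knockdown it was again Bola1 alone that was called, where 1.23% of 12574 genes were called and 0.684% were called higher. Since Bola1 was chosen on these comparisons, nothing follows from these counts. Between the Fn1 knockdown and NELL2 overexpression libraries 0 of the 9 members were called, against 1.29% of 12596 genes, a share at which 9 genes are too few to read anything from a count of 0. The median log2 ratio of the members was -0.02 under NELL2 overexpression and -0.01 upon Fn1 knockdown, against 0.0072 and -0.0028 over all genes tested. Higher than the Control were 4 members and lower 5 in each of these comparisons, where 52.3% and 49.5% of all genes tested were higher. Between the treated libraries the median was 0.07 against -0.0096. Of the members, 7 were higher upon Fn1 knockdown and 2 lower, where 48.1% of all genes were higher. Without Bola1 the counts were 6 and 2, with a median of 0.04.

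Genes with ratios most like those of Bola1 were then listed. The 5 nearest, by the distance between the log2 ratios to the Control in the 2 treated libraries, were Gm20537, Gm36961, Slc10a3, Lrrc8d and Gm25894. Lrrc8d, a subunit of volume-regulated anion channels, was at 8.50, 31.8 and 30.5 FPKM in the Control, NELL2 overexpression and knockdown libraries, at a distance of 0.630 from Bola1. Slc10a3 was at 2.85, 11.9 and 13 FPKM, at a distance of 0.535. The remaining 3 were predicted genes near 0 in the Control, with Gm20537 listed at 0 there and at 4.20 and 3.25 FPKM in the treated libraries, Gm36961 at 0.0959, 5.36 and 4.67 FPKM, and the small nucleolar RNA gene Gm25894 at 0.0898, 1.91 and 5.32 FPKM. Exons of 4 of the 5, all but Lrrc8d, overlap another gene on the same strand, namely Snx14 and Syncrip for Gm20537, Ephx1 for Gm36961, Ubl4a for Slc10a3 and Snhg1 for Gm25894. Such overlap was present in 9.23% of 12408 genes at 1 FPKM or more and in 5 of the 13 genes with a position that were 2-fold higher in both treated libraries. Bola1 and Lrrc8d have none.

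**Figure D3:**
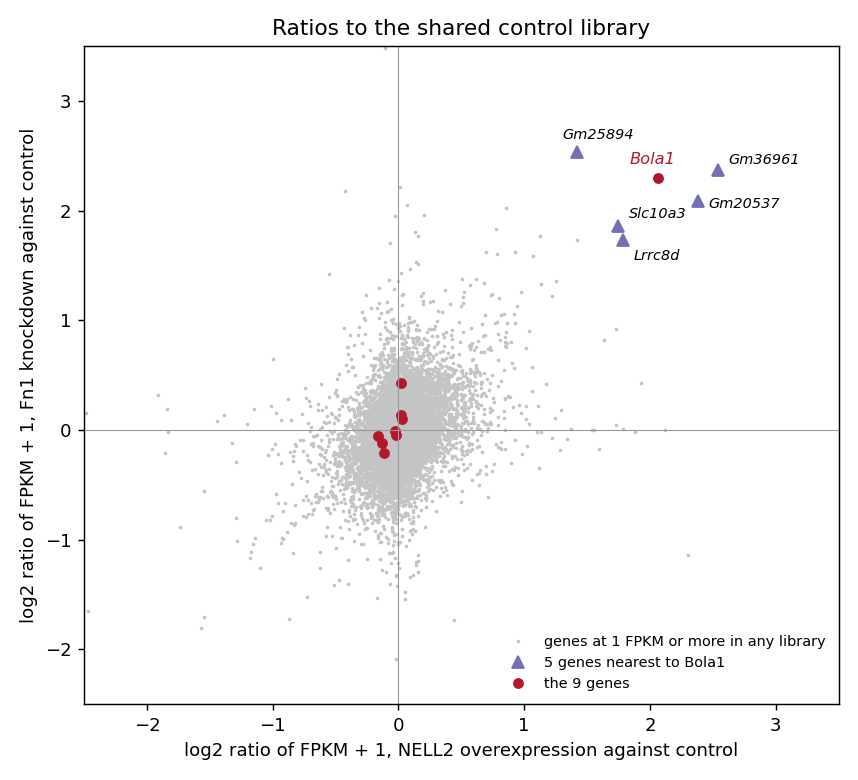
Log2 ratio of FPKM + 1 to the Control in the NELL2 overexpression (horizontal axis) and Fn1 knockdown (vertical axis) libraries for 12733 genes (grey), of which 16 lie outside the axes, with the 9 genes in red and the 5 genes nearest to Bola1 as triangles. Bola1 lies at 2.06 and 2.30 and the other 8 genes near the centre; both axes use the same Control library, so the shape of the cloud is partly built in.

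The rest of the pathway was then examined in 6 lists of 74 genes, each of which was present in the table. Among 15 other mitochondrial assembly factors, 0 were called in either comparison. Their median log2 ratio was -0.0077 under NELL2 overexpression, with 7 higher and 8 lower. Upon Fn1 knockdown it was -0.12, with 3 higher and 12 lower. All genes had medians of 0.0072 and -0.0028, with 52.3% and 49.5% of them higher. Hscb, the co-chaperone that acts on Iscu, was at 7.09, 6.18 and 6.98 FPKM and had the largest difference of the list under NELL2 overexpression, a log2 ratio of -0.17 within counting error. Fdx2 (listed as Fdx1l), the ferredoxin that supplies electrons for cluster assembly, was at 5.64, 6.31 and 10.1 FPKM. It had the largest difference upon Fn1 knockdown, a log2 ratio of 0.74 with a 95% counting interval of the FPKM ratio from 1.42 to 2.30, and its exons overlap Gm38431 and Gm49373 on the same strand. After Fn1 knockdown the counting interval was above 1 for 2 of these 15 genes and below 1 for 4, where 23.6% and 23.7% of 12278 genes lay above and below. Under NELL2 overexpression it included 1 for all 15, where 14.6% of 12277 genes lay above and 12.5% below. Among the 4 below 1 upon Fn1 knockdown was the mitochondrial chaperone gene Hspa9, chosen after its values were seen, at 224.3, 220.7 and 168.3 FPKM.

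Of the 74 listed genes 0 were called under NELL2 overexpression, where 0.652% of all genes were called, and 1, a cytosolic assembly factor, upon Fn1 knockdown, where 1.23% were. Ciapin1, which passes electrons to the early cytosolic machinery together with Ndor1 (minus strand of chromosome 8 from 94819804 to 94838358), was at 8.34 FPKM in the Control, 12.3 FPKM under NELL2 overexpression and 20.6 FPKM upon Fn1 knockdown. Its log2 ratio was 0.51 under NELL2 overexpression and 1.21 upon Fn1 knockdown, and the counting intervals of its FPKM ratio, 1.26 to 1.73 and 2.15 to 2.86, did not overlap. The call was lost with a pseudocount of 5 and at a 4-fold cutoff. Over the 10 genes of the list the median was 0.0070 under NELL2 overexpression, with 7 higher and 3 lower. Upon Fn1 knockdown it was 0.14, with 8 higher and 2 lower. Of all genes 52.3% and 49.5% were higher in these comparisons. The counting interval lay above 1 for 4 and below 1 for 2 of these 10 genes under NELL2 overexpression (14.6% and 12.5% of all genes), and above 1 for 4 and below 1 for 1 upon Fn1 knockdown (23.6% and 23.7%).

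In the remaining 4 lists 0 genes were called in either comparison with the Control, which at shares of 0.652% and 1.23% over all genes says little for lists of this size. For counting intervals, the shares over all genes were 14.6% above and 12.5% below 1 under NELL2 overexpression and 23.6% and 23.7% upon Fn1 knockdown, and the counts of the lists of 9 and 12 genes that follow are read against them. The 9 genes of lipoyl synthesis and lipoylated enzymes, downstream of Bola3 and Nfu1, had medians of -0.0071 and 0.06, and counting intervals above 1 for 0 genes under NELL2 overexpression and 3 upon Fn1 knockdown, with 0 below 1 in either. The largest differences in this list were that of Lipt1 under NELL2 overexpression and that of Dbt upon Fn1 knockdown. Lipt1, a lipoyltransferase, was at 5.41, 4.12 and 4.995 FPKM, within counting error (interval of the FPKM ratio 0.553 to 1.03). Dbt, a branched-chain dehydrogenase subunit, was at 4.46, 3.64 and 6.36 FPKM, with an interval from 1.19 to 1.73. The 12 mitochondrial iron-sulfur proteins had the narrowest range of the 6 lists, with medians of 0.0081 and 0.02 and all log2 ratios between -0.23 and 0.21. Cisd3, with the largest log2 ratio in size in each comparison, was at 10.96, 10.2 and 9.23 FPKM, within counting error. The counting interval included 1 for all 12 under NELL2 overexpression and lay above 1 for 2 upon Fn1 knockdown, Sdhb (47.99, 50.3 and 55.8 FPKM) and Uqcrfs1 (39.1, 39.0 and 42.6 FPKM), subunits of respiratory complexes that were chosen after their values were seen.

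Iron-sulfur proteins outside mitochondria had medians of 0.02 under NELL2 overexpression and -0.04 upon Fn1 knockdown over 15 genes, with counting intervals above 1 for 4 and 3 genes (14.6% and 23.6% of all genes) and below 1 for 1 and 4 (12.5% and 23.7%). Rsad2, the interferon-induced antiviral enzyme viperin, was at 13.4, 23.3 and 16.1 FPKM, a log2 ratio of 0.76 under NELL2 overexpression. Abce1, a ribosome recycling factor, was at 64.0, 63.2 and 41.9 FPKM, a log2 ratio of -0.60 upon Fn1 knockdown. Among 13 iron-handling genes the medians were 0.08 and 0.06. Slc39a14, a metal importer, was at 17.8, 21.8 and 26.5 FPKM, and Ireb2, the iron regulatory protein that is degraded when iron is plentiful, at 20.2, 21.4 and 13.5 FPKM, a log2 ratio of -0.55 upon Fn1 knockdown. The intervals of 5 of these 13 genes lay above 1 and those of 4 below 1 upon Fn1 knockdown, against shares of 23.6% and 23.7% over all genes, and under NELL2 overexpression 5 lay above 1 and 2 below, against 14.6% and 12.5%.

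**Figure D4:**
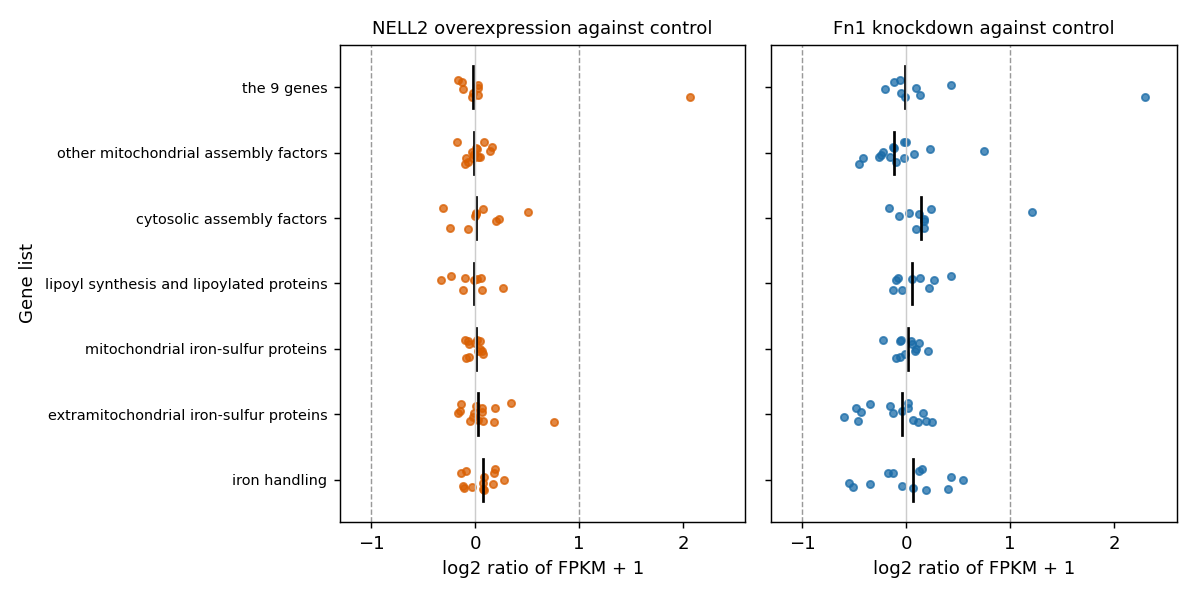
Log2 ratio of FPKM + 1 to the Control for each gene (points) of the 9 genes and the 6 pathway lists, under NELL2 overexpression (left) and upon Fn1 knockdown (right); black bars are list medians, dashed lines mark 2-fold, and vertical scatter within a list carries no meaning. Beyond 2-fold lie Bola1 in both panels and Ciapin1, at 1.21, upon Fn1 knockdown.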

How the data were processed

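Messenger RNA of ST2 cells was profiled in 3 libraries, 1 per group, which were grouped by the labels' treatment. Per the study's methods, polyadenylated RNA was made into libraries with a Hieff NGS MaxUp II kit, read as paired ends on an MGISEQ-2000 and mapped with HISAT2. The submitters' processing notes name HISAT2, DESeq and GRCm38. The authors deposited FPKM per gene, and these values were used without change. The program behind them, its annotation and the use of strand in counting are not given in the sources used here. FPKM divides by transcript length and library total, so genes with shared exons can gain or lose through the division of fragments.

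The members and gene lists were chosen with earlier results of these data known. No test was possible with 1 library per group. Log2 ratios of FPKM + 1 (pseudocount 1) were taken, and a gene was called at a size of 1 or more with 1 FPKM or more in either library. Depth was estimated from low values of 13865 single-transcript genes of 600 bases or more. Only 22.5% to 23.2% of these values lay within 0.02 of whole fragments, so whole reads were not recovered. Fragments per gene were estimated from the median length of coding transcripts (GENCODE M21, GRCm38), and 95% counting intervals of levels and of ratios were exact Poisson and binomial ones. The call rule and the ratio intervals were checked on simulated data with known depth. Genes as low as Bola1 in the Control were not among those checked, so that case was not covered.

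Named were the 9 members, every gene of a list that was called or, where none was, that with the largest difference in each comparison with the Control, the 5 genes nearest to Bola1 in both log2 ratios (Euclidean distance), genes overlapping a member, and the 3 nearest expressed genes on each side of Bola1. Other genes are said to have been chosen after their values were seen. Older symbols were resolved through RefSeq synonyms. Promoter windows and motif matches on both strands came from RefSeq (GRCm38.p6). Other pseudocounts, filters, scalings and cutoffs were tried. Python 3.11.15, NumPy 2.4.6, pandas 2.3.3 and SciPy 1.17.1 were used.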

Additional observations from a re-analysis of the deposited data

How the results depend on the processing

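Bola1 was called in both comparisons with the Control under every alternative run, which were pseudocounts of 0.1 and 5, no filter, a filter at 5 FPKM, median-of-ratios scaling, rescaling without mitochondrially encoded genes, and cutoffs at 1.5-fold and 4-fold. Its log2 ratio was smaller with a pseudocount of 5, at 1.17 under NELL2 overexpression and 1.34 after Fn1 knockdown, as the larger pseudocount makes it by construction. Ciapin1 was lost, leaving 0 called cytosolic assembly factors after Fn1 knockdown, with a pseudocount of 5 and at the 4-fold cutoff. The 1.5-fold cutoff added genes by construction, 1 mitochondrial assembly factor after Fn1 knockdown and 1 extramitochondrial iron-sulfur protein in each comparison. The other 152 values of counts, medians and Bola1 ratios stayed on their side of the cutoff or within 1.5 times, or moved by less than the spread set for them, and so did 144 values of single named genes. Median-of-ratios factors were between 0.9978 and 1.004, so this scaling tested little. Rescaling to a larger common sum without mitochondrially encoded genes enlarges all values and so makes the pseudocount count for less, and the log2 ratio of Bola1 was then 2.37 under NELL2 overexpression and 2.62 upon Fn1 knockdown. Summing Bola1 with overlapping genes tested nothing because it has none. Settings that only change the pseudocount, filter or scaling act on the same 3 libraries and say nothing about the spread between cultures.

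No paired analysis was possible because the groups held a single library each, which also leaves no replicate to omit. Depth limited Bola1 most, with about 27 estimated fragments in the Control, followed by Bola3, with 135 to 149.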
